A study of Danio rerio with 8 samples.

Results

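Keratins, the cell adhesion gene epcam, integrins, laminins and claudins build the cytoskeleton and the contacts of epithelial cells. Their transcripts were followed in 8 bulk RNA-seq libraries of sorted zebrafish pancreatic cells. The members were the rows of the deposited count table whose gene name begins with krt, cldn or epcam, with itga or itgb and a digit or v, or with lama, lamb or lamc and a digit, ignoring case. This gave 110 of 31953 gene rows: 20 keratins, epcam, 19 integrin alpha genes, 12 integrin beta genes, 13 laminins and 40 claudins or claudin-domain genes. The remaining 5 rows carry such a name but encode other proteins (krtcap2, KRTCAP2 (2 of 2), KRTCAP3, itgb1bp1 and ITGB1BP2).

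Every library came from the pancreas of fish 30 days post fertilization that carried the same pair of transgenes, Tg(ins:BB1.0L), a Brainbow reporter under the insulin promoter, and TgBAC(sst1.1:memEGFP), a membrane EGFP reporter of the somatostatin gene sst1.1. Growth was labelled normal in all cases. Fluorescence-activated sorting gave 3 groups: double-positive cells (sst1.1+ins+, 3 libraries), insulin cells (ins+, 2 libraries) and somatostatin cells (sst1.1+, 3 libraries). The groups rest on fluorescence driven by hormone gene promoters, and no label ties a replicate to its own fish, pool or sort. The p-values therefore cover the spread between these 8 libraries, and that spread may be technical.

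Keratins are intermediate filament proteins, and a filament is built from pairs of a type I and a type II keratin. Integrins are receptors of an alpha and a beta subunit that tie the cytoskeleton to the extracellular matrix. Laminins are matrix proteins of an alpha, a beta and a gamma chain, found in basement membranes, and they are ligands of several integrins. Claudins are membrane proteins of tight junctions, and Epcam is an adhesion protein of many epithelia. In the pancreas, keratins 8 and 18 are found in duct and acinar cells and, at lower levels, in endocrine cells. Integrin and laminin contacts are known to affect the survival and secretion of beta cells in mammals.

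The libraries held 24234927 to 24504469 gene counts in sst1.1+ins+, 16948429 and 19861081 in the ins+ libraries and 23425079 to 30374029 in sst1.1+. Levels below are CPM, read counts scaled to a common library total after TMM adjustment. A floor of 3 counts in a library equalled 0.101 to 0.176 CPM, which covers counting error only. The ERCC spike-in share was 0.0145 to 0.0236% in sst1.1+ins+, 0.0416 and 0.0501% in the ins+ libraries and 0.0244 to 0.0348% in sst1.1+. The sort was visible in the hormone genes. Insulin (ins) stood at 115530 to 130711 CPM in sst1.1+ins+, 235649 and 257044 CPM in ins+ and 634 to 1277 CPM in sst1.1+, and sst1.1 at 156845 to 210186, 43277 and 55025, and 250996 to 298610 CPM in the same order of groups.

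Of the 110 members, 23 had no count in any library and a further 9 never exceeded 3 counts in a library. A level of at least 1 CPM in every library of some group was reached by 40 members, and by 26 in all 8 libraries. The filter on low counts kept 60 members for testing: 8 keratins, epcam, 14 integrin alpha genes, 6 integrin beta genes, 9 laminins, 18 claudins and 4 of the other proteins. This was 54.5% of members, against 51.4% of all 31953 gene rows. Of all gene rows, 9261 had no count and 12165 reached 1 CPM in every library of some group. The 48 and 51 members seen in the ins+ libraries were fewer than the 60 to 64 seen in sst1.1+ins+ and the 57 to 64 in sst1.1+. All genes seen were also fewest in ins+, at 14923 and 15614, against 16118 to 17815 in sst1.1+ins+ and 16472 to 16845 in sst1.1+. The ins+ libraries were also the shallowest, and the part of depth in this was not tested. No count at all was found for 10 claudins (among them cldn2, cldn7a and cldn5b, a homologue of the endothelial claudin 5), for the keratins krt93, krt95, krt96, krt222, krt1-c5 and krtt1c19e, or for the beta integrins itgb3a, itgb7 and itgb1b. The laminin chain gene LAMA2 and the integrins itga2b, the platelet integrin, and ITGA6 (4 of 4) were also at 0, as was KRTCAP2 (2 of 2). The other claudin 5 gene, cldn5a, did have counts and was tested without a call. It stood at 0, 0.807 and 0.825 CPM in sst1.1+ins+, 3.14 and 0 CPM in ins+ and 0.571, 0 and 0.177 CPM in sst1.1+.

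**Figure D1:**
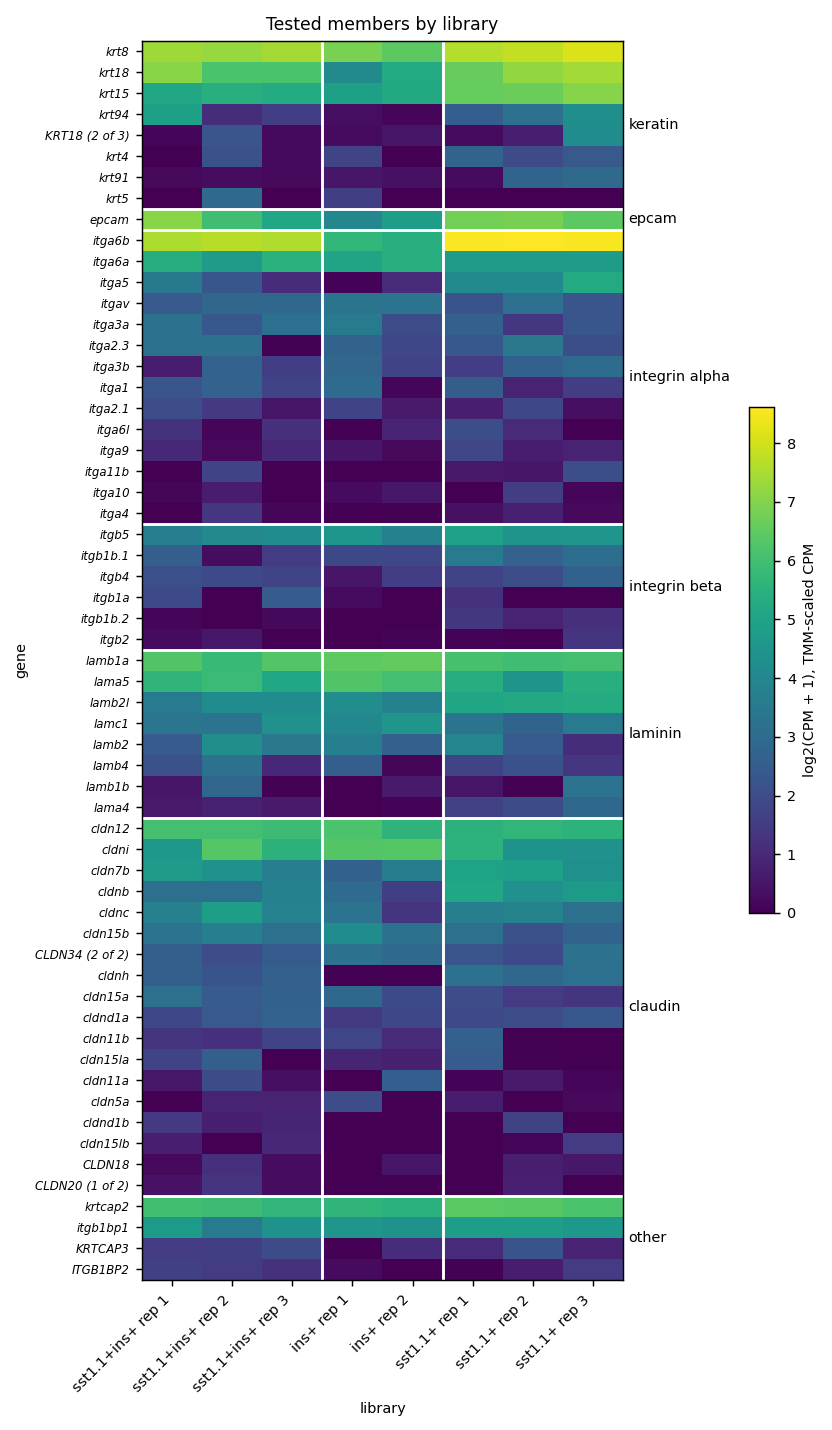
Level of 59 of the 60 tested members in each library, as colour on a log2(CPM + 1) scale. Rows are genes grouped by family and ordered within a family by mean CPM, and columns are the 3 sst1.1+ins+, 2 ins+ and 3 sst1.1+ libraries. A few rows of each family carry most of the signal, and cldnh is dark in both ins+ libraries.

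In RefSeq's gene order on the GRCz12tu assembly, where 99 of 110 members were found by symbol, 34 members lay in 13 runs of adjacent protein-coding genes. One run held krt5, krt8, krt18 and KRT18 (3 of 3), another held cldnh, cldnc and cldnb, and a further run held itgb1b, itgb1b.2 and itgb1b.1. The pairs lamb2 and lamb2l, and lamb1a and lamb4, were also neighbours. How similar the sequences within such runs are was not measured here, and how reads that match several genes were counted is not given in the sources used here.

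Several keratins, epcam, the integrins itga6b and itga5 and 2 claudins were lower in ins+ cells than in sst1.1+ cells. Of 60 tested members, 8 fell in ins+ against sst1.1+ and 0 rose (edgeR quasi-likelihood test, adjusted p at 0.05 over all 16418 genes), and at an unadjusted p under 0.05 there were 18. Over all tested genes 4.03% were called (1.61% higher and 2.42% lower), and 17.6% had an unadjusted p under 0.05. DESeq2 called 13 members lower and 2 higher (lama5 and cldni), and limma-voom 5 lower and 0 higher. Over all tested genes DESeq2 called 1678 and limma-voom 615, beside 662 by edgeR. The called members were the keratins krt8, krt18 and krt15, epcam, the integrins itga6b and itga5 and the claudins cldnb and cldnh. The median log2 fold change of tested members was -1.17, against -0.07 for all tested genes. The marker lists of non-endocrine cell types, described below, also had medians under 0, apart from the intestinal list at 0.16. The medians were -1.02 for acinar, -3.39 for mesenchymal, -0.84 for skin and periderm and -0.62 for ductal markers. Lists with 1 to 4 tested genes had -4.13 (immune), -1.53 (hepatocyte), -2.72 (endothelial) and -5.32 (erythrocyte). The 2 groups did not overlap for 22 members lower and 7 higher in ins+, where 17.7% of all tested genes were lower and 15.7% higher without overlap. In sorted bulk samples, fewer cells of a type and less RNA per cell cannot be told apart.

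Of 8 tested keratins 3 fell in ins+ against sst1.1+ and 0 rose (median log2 fold change -2.11), where 4.03% of all tested genes were called. At an unadjusted p under 0.05 there were 4, against 17.6% of all tested genes. Summed over all 20 rows, keratin levels were 280 to 363 CPM in sst1.1+ins+, 160 and 166 CPM in ins+ and 404 to 637 CPM in sst1.1+. The 3 called genes, krt8, krt18 and krt15, held 91.3 to 99.1% of the keratin counts in sst1.1+ins+, 96.8 and 99.5% in the ins+ libraries and 92.5 to 97.3% in sst1.1+.

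The type II keratin krt8 stood at 164, 153 and 172 CPM in sst1.1+ins+, 116 and 85.4 CPM in ins+ and 202, 223 and 287 CPM in sst1.1+. The 3 groups did not overlap, and sst1.1+ins+ lay between the others. It was 2.35-fold lower in ins+ than in sst1.1+ (log2 fold change -1.23 ± 0.21 SE, edgeR adjusted p = 0.00563). The call was lost without ins+ replicate 2, with log2 values of -1.47 to -1.03 over all alternatives.

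Its usual partner, the type I keratin krt18 (krt18a.1 in current names), stood at 133, 70.7 and 70.31 CPM in sst1.1+ins+, 16 and 37.7 CPM in ins+ and 96.9, 149 and 171 CPM in sst1.1+. It was 5.18-fold lower in ins+ than in sst1.1+ (log2 fold change -2.37 ± 0.42, edgeR adjusted p = 0.00837), a call kept in all 17 alternatives, with log2 values of -3.12 without ins+ replicate 2 and -1.88 without ins+ replicate 1 at the ends. Replicate 1 of sst1.1+ins+ was the high library of its group and reached into the sst1.1+ range. The ratio of krt8 to krt18 counts was 1.23 to 2.45 in sst1.1+ins+, 2.27 and 7.26 in the ins+ libraries and 1.49 to 2.08 in sst1.1+. Only ins+ replicate 1 stood apart in this ratio.

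The type I keratin krt15 divided the groups differently. It stood at 34.4, 41.3 and 38.2 CPM in sst1.1+ins+, 29.0 and 36.5 CPM in ins+ and 94.3, 101 and 131 CPM in sst1.1+. Both sst1.1+ins+ and ins+ lay below every sst1.1+ library and overlapped each other. The gene was 3.32-fold lower in ins+ than in sst1.1+ (log2 fold change -1.73 ± 0.24, edgeR adjusted p = 0.00171), a call kept in all 17 alternatives.

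The other tested keratins were uneven between libraries of 1 group. The gene krt94 stood at 28.7, 1.19 and 2.02 CPM in sst1.1+ins+, 0.249 and 0.117 CPM in ins+ and 4.90, 8.37 and 18.4 CPM in sst1.1+. Its ins+ values rest on 5 and 2 counts, and it did not pass against sst1.1+ (edgeR adjusted p = 0.0643), though it did in 7 of 17 alternatives. The type II keratin krt4, a marker of surface epithelium in fish, stood at 0, 3.36 and 0.165 CPM in sst1.1+ins+, 2.39 and 0 CPM in ins+ and 5.64, 2.93 and 4.33 CPM in sst1.1+ (edgeR adjusted p = 0.712 for ins+ against sst1.1+). For KRT18 (2 of 3), now krt18b, 393 of its 522 counts came from sst1.1+ replicate 3. For krt5, 160 of its 200 counts came from sst1.1+ins+ replicate 2, and the 3 sst1.1+ libraries were at 0.

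Such unevenness was common among the members. Of 60 tested members, 16 (26.7%) had 0 counts in 1 library and at least 1 CPM in another of the same group, against 21.9% of all tested genes. The median coefficient of variation within a group was 0.535 for tested members and 0.409 for all tested genes.

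The gene epcam stood at 136, 62.0 and 34.0 CPM in sst1.1+ins+, 14.9 and 27.4 CPM in ins+ and 108, 114 and 85.2 CPM in sst1.1+. The ins+ libraries were below all others, and the sst1.1+ins+ libraries spanned a range wider than that of sst1.1+. It was 4.85-fold lower in ins+ than in sst1.1+ (log2 fold change -2.28 ± 0.50, edgeR adjusted p = 0.0270). Of 17 alternatives 5 lost the call (adjusted p reached 0.129), namely limma-voom and the fits that left out sst1.1+ replicate 1 or replicate 2 or either ins+ library. The log2 value was -2.79 without ins+ replicate 2 and -1.90 without ins+ replicate 1.

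**Figure D2:**
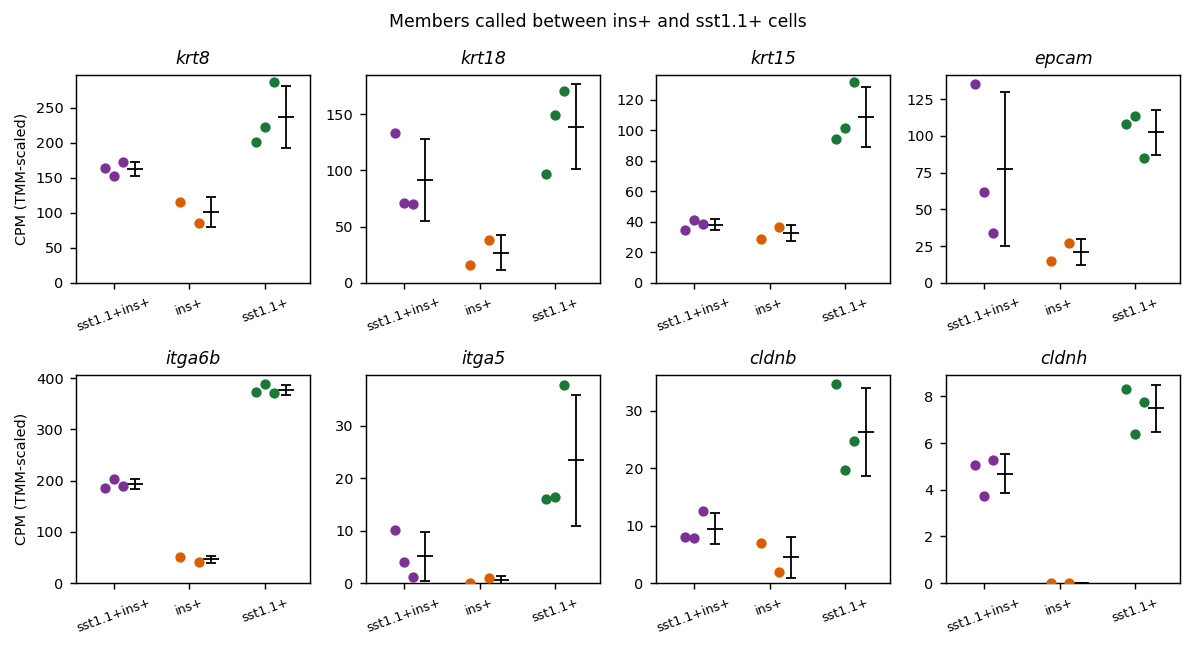
CPM of the 8 members called between ins+ and sst1.1+, with 1 point per library and the mean ± SD beside the points (3 sst1.1+ins+, 2 ins+ and 3 sst1.1+ libraries, linear axes from 0). The gene itga6b forms 3 separate levels, krt15 is low in both sst1.1+ins+ and ins+, and cldnh is at 0 only in ins+.

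Among integrin alpha genes, 2 of 14 tested fell in ins+ against sst1.1+ and 0 rose (median log2 fold change -0.74), where 4.03% of all tested genes were called. The same 2 had an unadjusted p under 0.05, against 17.6% of all tested genes. The summed integrin level, alpha and beta together, was 282 to 292 CPM in sst1.1+ins+, 121 and 150 CPM in ins+ and 487 to 499 CPM in sst1.1+. The gene itga6b, which like itga6a is named for the alpha 6 subunit of laminin receptors, held 69.5 to 75.4% of integrin alpha counts in sst1.1+ins+, 40.3 and 41.3% in the ins+ libraries and 80.4 to 84.3% in sst1.1+.

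The level of itga6b was 186, 204 and 189 CPM in sst1.1+ins+, 51.3 and 41.9 CPM in ins+ and 372, 389 and 371 CPM in sst1.1+. The spread within each group was small beside the gaps between them. It was 8.09-fold lower in ins+ than in sst1.1+ (log2 fold change -3.02 ± 0.17, edgeR adjusted p = 2.26e-06), a call kept in all 17 alternatives. Its paralogue itga6a stood at 40.3, 26.0 and 43.8 CPM in sst1.1+ins+, 31.4 and 42.2 CPM in ins+ and 25.7, 26.1 and 26.2 CPM in sst1.1+. No difference was called for itga6a (log2 fold change 0.50, 95% interval -0.13 to 1.13, edgeR adjusted p = 0.395 for ins+ against sst1.1+), and this interval excludes a fall of the size seen for itga6b. The ratio of itga6b to itga6a counts was 4.32 to 7.83 in sst1.1+ins+, 0.994 and 1.64 in the ins+ libraries and 14.2 to 14.9 in sst1.1+, without overlap. This ratio was not tested.

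The fibronectin receptor subunit gene itga5 stood at 10.1, 3.95 and 1.15 CPM in sst1.1+ins+, 0.0499 and 1.06 CPM in ins+ and 16, 16.3 and 37.8 CPM in sst1.1+. Its ins+ values rest on 1 and 18 counts. The fall in ins+ against sst1.1+ passed (log2 fold change -5.42 ± 1.22, edgeR adjusted p = 0.0304). Of 17 alternatives 7 lost it (adjusted p reached 0.138): limma-voom, the replicate block, and the fits that left out any 1 sst1.1+ library, ins+ replicate 1 or sst1.1+ins+ replicate 2. The log2 value was -8.73 without ins+ replicate 2 and -4.46 without ins+ replicate 1. The alpha subunit gene itgav, whose product pairs with several beta subunits, stood at 4.61 to 6.27 CPM in sst1.1+ins+, 8.69 and 8.88 CPM in ins+ and 3.76 to 7.80 CPM in sst1.1+ (edgeR adjusted p = 0.548 for ins+ against sst1.1+). The other 10 tested alpha genes stayed between 0 and 10.6 CPM in every library, and none was called.

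None of 6 tested integrin beta genes was called in any comparison by edgeR, DESeq2 or limma-voom. For ins+ against sst1.1+, 1 of them had an unadjusted p under 0.05, and 0 in the other comparisons. Over all tested genes the share was 17.6% for ins+ against sst1.1+. The gene itgb5, a beta partner of alpha v, stood at 12.2, 15.4 and 16.9 CPM in sst1.1+ins+, 22 and 12.8 CPM in ins+ and 29.2, 20.8 and 21.3 CPM in sst1.1+. The beta 1 gene itgb1b.1 stood at 5.03, 0.212 and 1.90 CPM in sst1.1+ins+, 2.64 and 2.53 CPM in ins+ and 10.6, 5.57 and 7.73 CPM in sst1.1+. In both, the sst1.1+ins+ libraries lay below every sst1.1+ library, as in 7.27% of all tested genes, and neither was called. The laminin receptor subunit itgb4, which pairs with alpha 6 in hemidesmosomes, stood at 2.43 to 3.25 CPM in sst1.1+ins+, 0.449 and 1.94 CPM in ins+ and 2.32 to 5.39 CPM in sst1.1+. The second beta 1 gene itgb1a was at 0 in 4 of 8 libraries and reached 4.74 CPM in sst1.1+ins+ replicate 3.

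Laminin genes, as a family, summed to 163 to 216 CPM in sst1.1+ins+, 208 and 234 CPM in ins+ and 148 to 184 CPM in sst1.1+. None of 9 tested laminins was called by edgeR in any comparison with the default filter on low counts. For ins+ against sst1.1+, edgeR called lama5 higher with no such filter (adjusted p = 0.0131) and lamb2l lower with a minimum of 5 CPM in 2 libraries (adjusted p = 0.0481). For ins+ against sst1.1+, 5 of 9 had an unadjusted p under 0.05, against 17.6% of all tested genes. DESeq2 called 3 there (lama5 higher, lamb2l and lama4 lower) and limma-voom called 0. Both comparisons of sst1.1+ins+ had 1 laminin at an unadjusted p under 0.05. Over all tested genes the share was 7.9% against sst1.1+ and 12.1% against ins+. DESeq2 called 1 laminin against sst1.1+ (lamb2l) and 0 against ins+, and limma-voom 0 in each.

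The laminin genes lama5, lamb1a and lamc1 had both ins+ values above every sst1.1+ library, as had 15.7% of all tested genes. Alpha 5, beta 1 and gamma 1 chains assemble into a laminin of epithelial basement membranes. The alpha chain lama5 stood at 49.2, 57.9 and 33.8 CPM in sst1.1+ins+, 76.1 and 64.8 CPM in ins+ and 40.3, 21.1 and 42.3 CPM in sst1.1+. Its log2 fold change in ins+ against sst1.1+ was 1.03 ± 0.32 (95% interval 0.33 to 1.73, edgeR adjusted p = 0.110). The beta chain lamb1a stood at 75.3, 54.4 and 78.3 CPM in sst1.1+ins+, 86.9 and 93.0 CPM in ins+ and 67.1, 61.7 and 65.6 CPM in sst1.1+ (0.47 ± 0.21, edgeR adjusted p = 0.261). The gamma chain lamc1 stood at 9.37, 8.80 and 19.4 CPM in sst1.1+ins+, 15.11 and 21.7 CPM in ins+ and 9.04, 5.77 and 10.5 CPM in sst1.1+ (1.13 ± 0.49, edgeR adjusted p = 0.260). The second beta 1 gene, lamb1b, had a log2 value of the other sign (-3.50 ± 2.69, edgeR adjusted p = 0.540). It stood at 0.426, 6.25 and 0.0412 CPM in sst1.1+ins+, 0 and 0.529 CPM in ins+ and 0.403, 0 and 8.66 CPM in sst1.1+.

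Other laminin chains had lower values in ins+ than in sst1.1+. The beta 2-like chain lamb2l stood at 10.6, 17.3 and 17.2 CPM in sst1.1+ins+, 17.7 and 12.7 CPM in ins+ and 33.0, 35.7 and 37.9 CPM in sst1.1+. Both sst1.1+ins+ and ins+ lay below every sst1.1+ library, with edgeR adjusted p = 0.0745 for ins+ and 0.179 for sst1.1+ins+ against sst1.1+. DESeq2 called both differences. The alpha 4 chain lama4, a chain of vascular and mesenchymal laminins, stood at 0.542, 0.722 and 0.536 CPM in sst1.1+ins+, 0 and 0.0587 CPM in ins+ and 2.15, 3.01 and 6.54 CPM in sst1.1+ (edgeR adjusted p = 0.0743 for ins+ against sst1.1+).

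Claudins split by gene. Their sum was 174 to 240 CPM in sst1.1+ins+, 169 and 210 CPM in ins+ and 150 to 208 CPM in sst1.1+, with overlap of all groups. Of 18 tested claudins, 2 fell in ins+ against sst1.1+ and 0 rose (median log2 fold change -0.74), where 4.03% of all tested genes were called. At an unadjusted p under 0.05 there were 4, against 17.6% of all tested genes. Without overlap of the groups, 4 were lower and 2 higher in ins+, against 17.7% and 15.7% of all tested genes. The called genes, cldnb and cldnh, lie in the same run of neighbours with cldnc between them.

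The gene cldnh (cldn3c in current names) had 131, 88 and 128 counts in sst1.1+ins+, 0 and 0 counts in ins+ and 248, 157 and 176 counts in sst1.1+. As CPM this was 5.07, 3.74 and 5.28 in sst1.1+ins+ and 8.33, 6.38 and 7.78 in sst1.1+. Against the floor of 3 counts per library it was at least 46.0-fold lower in ins+ than in sst1.1+ (edgeR adjusted p = 0.00206), a call kept in all 17 alternatives. The gene cldnb stood at 8.09, 7.78 and 12.6 CPM in sst1.1+ins+, 6.98 and 2.0 CPM in ins+ and 34.6, 19.7 and 24.7 CPM in sst1.1+, a 5.84-fold fall in ins+ against sst1.1+ (log2 fold change -2.55 ± 0.58, edgeR adjusted p = 0.0322). Of 17 alternatives 7 lost this call (adjusted p reached 0.142): limma-voom, a fit on ins+ and sst1.1+ alone, and the fits that left out any 1 sst1.1+ library, ins+ replicate 2 or sst1.1+ins+ replicate 1. The log2 value was -3.72 without ins+ replicate 1 and -1.92 without ins+ replicate 2. Their neighbour cldnc stood at 12.5, 26.8 and 13.0 CPM in sst1.1+ins+, 8.68 and 1.53 CPM in ins+ and 11.9, 13.3 and 8.0 CPM in sst1.1+, with overlap of ins+ and sst1.1+.

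Of the other claudins named for their level, cldn12 stood at 65.8, 64.2 and 58.3 CPM in sst1.1+ins+, 71.2 and 47.0 CPM in ins+ and 45.7, 49.9 and 46.0 CPM in sst1.1+. Its log2 fold change in ins+ against sst1.1+ was 0.32 (95% interval -0.17 to 0.81, edgeR adjusted p = 0.489). The gene cldni stood at 23.2, 80.4 and 45.2 CPM in sst1.1+ins+, 77.2 and 79.8 CPM in ins+ and 46.5, 20.4 and 19.4 CPM in sst1.1+. Both ins+ libraries were above every sst1.1+ library, but the gene was called in 2 of 17 alternatives only (log2 fold change 1.45 ± 0.47, edgeR adjusted p = 0.125). The gene cldn7b stood at 25.5, 19.9 and 12 CPM in sst1.1+ins+, 5.39 and 11.3 CPM in ins+ and 31.1, 28.2 and 19.0 CPM in sst1.1+ (-1.65 ± 0.47, edgeR adjusted p = 0.0802, called in 4 of 17 alternatives).

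**Figure D3:**
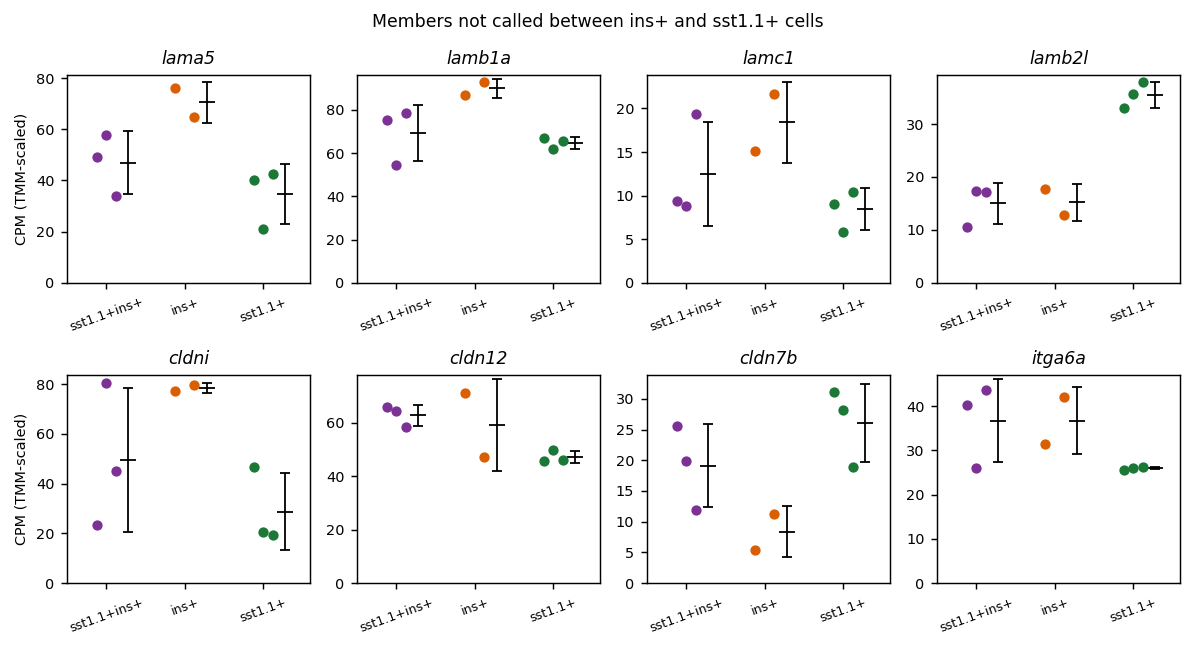
CPM of 8 members not called between ins+ and sst1.1+, with 1 point per library and the mean ± SD beside the points (linear axes from 0). The laminin chains lama5, lamb1a and lamc1 and the claudin cldni have both ins+ points above all sst1.1+ points, whereas lamb2l and cldn7b have them below.

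A keratin and an integrin were lower in double-positive cells than in sst1.1+ cells. Of 60 tested members, krt15 and itga6b fell in sst1.1+ins+ and 0 rose, where 0.207% of all tested genes were called (0.177% higher and 0.0305% lower, or 29 and 5 genes). At an unadjusted p under 0.05 there were 9 members, against 7.9% of all tested genes. DESeq2 called 4 members lower (krt15, itga6b, krt91 and lamb2l) and 0 higher, and limma-voom 2 lower and 0 higher. Over all tested genes DESeq2 called 272 and limma-voom 99, beside 34 by edgeR. The groups did not overlap for 12 members lower and 3 higher in sst1.1+ins+, against 7.27% of all tested genes lower and 7.38% higher. The median log2 fold change was -0.02 for tested members and 0.00087 for all tested genes. This comparison shares the sst1.1+ libraries with the one above, so the 2 are not independent.

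The fall of krt15 was 2.87-fold in sst1.1+ins+ against sst1.1+ (log2 fold change -1.52 ± 0.20, edgeR adjusted p = 0.00945), with 38.0 ± 3.49 CPM in sst1.1+ins+ and 109 ± 19.6 CPM in sst1.1+ (SD, n = 3 each). Without sst1.1+ins+ replicate 1 or replicate 3 the call was lost (adjusted p up to 0.0743). The fall of itga6b was 1.95-fold (log2 fold change -0.97 ± 0.14, edgeR adjusted p = 0.0134), with 193 ± 9.41 CPM in sst1.1+ins+ and 377 ± 10.2 CPM in sst1.1+ (SD, n = 3 each). That call was lost without sst1.1+ins+ replicate 1, sst1.1+ins+ replicate 3 or sst1.1+ replicate 2 (adjusted p up to 0.0935). The genes krt8, cldnb, itga5 and lamb2l also had every sst1.1+ins+ library below every sst1.1+ library without passing, with log2 fold changes of -0.54 ± 0.18, -1.47 ± 0.48, -2.20 ± 0.86 and -1.24 ± 0.30. For krt18 and epcam the values were -0.60 ± 0.34 and -0.41 ± 0.41, and the groups overlapped.

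Against ins+ cells, double-positive cells had more itga6b and cldnh. Of 60 tested members 2 rose and 0 fell in sst1.1+ins+, where 0.92% of all tested genes were called (0.755% higher and 0.164% lower), and at an unadjusted p under 0.05 there were 10, against 12.1% of all tested genes. DESeq2 called 7 members higher (also krt8, krt18, krt94, epcam and itga5) and 0 lower, and limma-voom 1 higher (itga6b) and 0 lower. Over all tested genes DESeq2 called 792 and limma-voom 177, beside 151 by edgeR. This comparison shares libraries with each of those above. The groups did not overlap for 18 members higher and 5 lower in sst1.1+ins+, against 16.4% of all tested genes higher and 14% lower. The median log2 fold change was 0.70 for tested members and 0.08 for all tested genes.

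The gene itga6b was 4.14-fold higher in sst1.1+ins+, at 193 ± 9.41 CPM (SD, n = 3) against 46.6 ± 6.64 CPM in ins+ (SD, n = 2; log2 fold change 2.05 ± 0.16, edgeR adjusted p = 0.000117). It was the member called in all 3 comparisons. The gene cldnh was at least 28.8-fold higher in sst1.1+ins+ than in ins+ against the floor of 3 counts per library (edgeR adjusted p = 0.00879). That call was lost with limma-voom and in a fit on these 2 groups alone (adjusted p up to 0.0674). Against sst1.1+, cldnh was not called in sst1.1+ins+ (log2 fold change -0.67, 95% interval -2.09 to 0.75), although its 3 values lay below those of sst1.1+.

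For krt15 the difference of sst1.1+ins+ from ins+ was 0.21 on the log2 scale (95% interval -0.28 to 0.71, edgeR adjusted p = 0.775), so a difference of the size seen against sst1.1+ was outside the interval. The genes krt8 (log2 fold change 0.69 ± 0.20), krt18 (1.77 ± 0.41), epcam (1.87 ± 0.49), itga5 (3.22 ± 1.12), cldn7b (1.2 ± 0.46) and cldnb (1.08 ± 0.55) had every sst1.1+ins+ library above both ins+ libraries without passing. With a library left out these values ranged from 1.28 to 2.53 for krt18, 1.18 to 2.38 for epcam, 2.22 to 6.54 for itga5, 0.77 to 1.84 for cldn7b and 0.45 to 2.25 for cldnb. The highest was reached without ins+ replicate 2 for krt18, epcam, itga5 and cldn7b, and without ins+ replicate 1 for cldnb. For krt18 the value of 2.53 passed (edgeR adjusted p = 0.0454). In sst1.1+ins+ replicate 1, epcam, krt18 and krt94 were at 136, 133 and 28.7 CPM, the highest of the group for each.

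**Figure D4:**
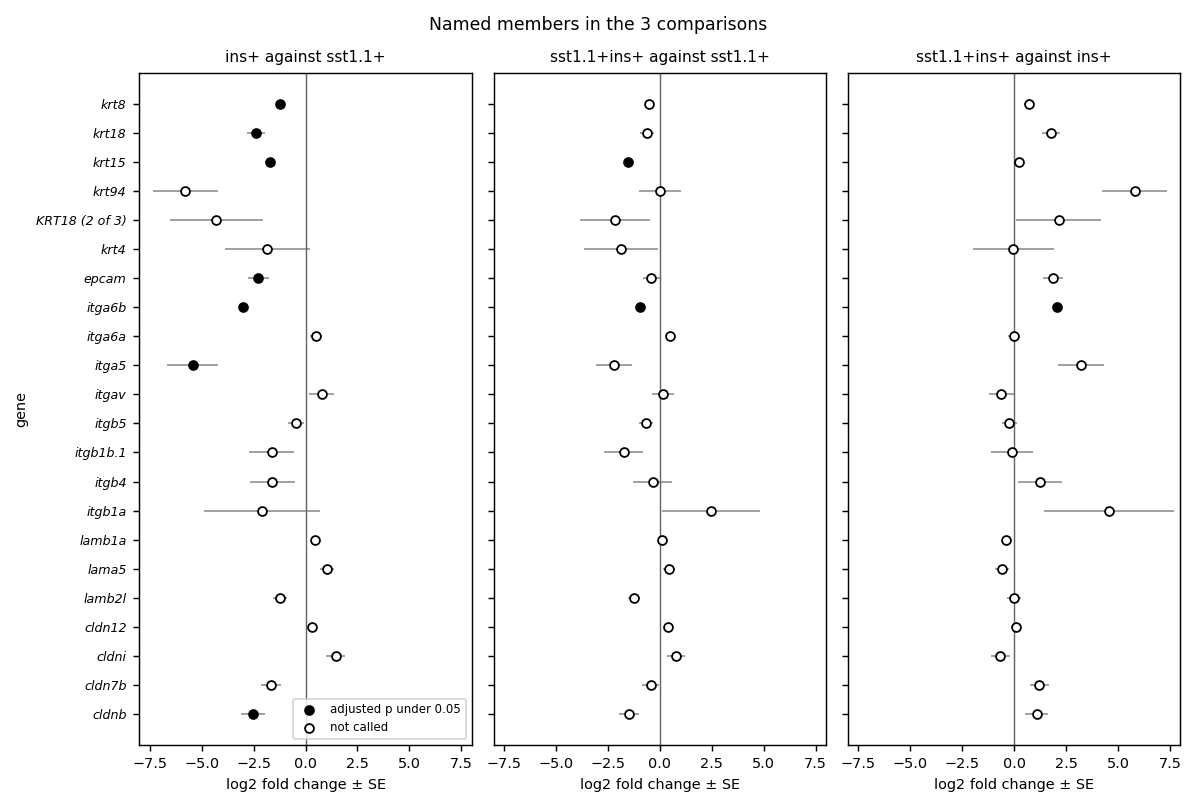
Log2 fold change ± SE of the named members in each comparison, with filled points for edgeR adjusted p under 0.05 (cldnh, at 0 counts in ins+, is left out). Filled points lie left of 0 for ins+ against sst1.1+ (7 of those drawn) and for sst1.1+ins+ against sst1.1+ (2), and itga6b lies right of 0 against ins+.

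Genes that work with the members passed the test in both directions. Of 119 tested genes of the lists below, edgeR called 12 in ins+ against sst1.1+, where 4.03% of all tested genes were called. At an unadjusted p under 0.05 there were 32, against 17.6% of all tested genes. DESeq2 called 5 higher and 18 lower, and limma-voom 4 higher and 6 lower. The lists are short, so 1 call in a list is no result about the list. Of 18 tested genes of adherens junctions and desmosomes, 1 rose and 3 fell in ins+ against sst1.1+. The adhesion and Wnt signalling gene ctnnb1 stood at 143 to 220 CPM in sst1.1+ins+, 70.9 and 74.2 CPM in ins+ and 197 to 288 CPM in sst1.1+ (log2 fold change -1.74 ± 0.23, edgeR adjusted p = 0.00123). It was also 1.29 ± 0.22 higher on the log2 scale in sst1.1+ins+ than in ins+ (edgeR adjusted p = 0.0210). The cadherin gene cdh17 (-3.49 ± 0.68) and the desmosomal cadherin dsc2l, at 0 counts in both ins+ libraries, also fell. The alpha catenin ctnna2 rose (1.76 ± 0.32, edgeR adjusted p = 0.00857).

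Of 18 other tight junction genes 1 rose and 0 fell in ins+ against sst1.1+. This was occludin a (oclna), at 27.7 to 36.3 CPM in sst1.1+ins+, 52.9 and 60.7 CPM in ins+ and 18.5 to 24.8 CPM in sst1.1+ (log2 fold change 1.33 ± 0.26, edgeR adjusted p = 0.0125). The junction scaffold tjp1b stood at 0.80 ± 0.26 (edgeR adjusted p = 0.124). Of 25 integrin adaptor and focal adhesion genes, vinculin a (vcla) rose in ins+ against sst1.1+ (2.34 ± 0.53, edgeR adjusted p = 0.0302) and 0 fell. The list's median was 0.01, beside -0.07 for all tested genes. Of 14 hemidesmosome and tetraspanin genes 1 fell, cd63, an integrin-associated tetraspanin of endosomes (-2.04 ± 0.21, edgeR adjusted p = 0.000171), and it was 1.23 ± 0.20 higher in sst1.1+ins+ than in ins+.

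Of 18 basement membrane genes none was called by edgeR in ins+ against sst1.1+. At an unadjusted p under 0.05 there were 3 (col4a1, dag1 and fn1b), against 17.6% of all tested genes. DESeq2 called 3 of the 18 lower and limma-voom 0. The collagen IV gene col4a1 stood at a log2 fold change of -5.0 ± 1.81 (edgeR adjusted p = 0.171) and the laminin receptor dystroglycan (dag1) at 0.68 ± 0.28 (edgeR adjusted p = 0.240). Of 10 other intermediate filament genes 1 fell in ins+ against sst1.1+, the nuclear lamin lmna (-1.31 ± 0.32, edgeR adjusted p = 0.0443). Of 16 epithelial transcription and splicing factors, elf3 (-5.22 ± 0.89), klf6a (-2.77 ± 0.57) and the endoderm factor foxa2 (-1.26 ± 0.24) fell in ins+ against sst1.1+. Its relative foxa3 rose (0.87 ± 0.20, edgeR adjusted p = 0.0329). The median log2 fold changes in ins+ against sst1.1+ were -0.64 for the adherens and desmosome list, -0.32 for the tight junction list and -0.59 for the basement membrane list. They were 0.02 for the hemidesmosome and tetraspanin list, -1.54 for the other intermediate filament list and -0.34 for the epithelial factors. In sst1.1+ins+ against sst1.1+ edgeR called 0 of 119 tested genes of these lists, where 0.207% of all tested genes were called. At an unadjusted p under 0.05 there were 14, against 7.9% of all tested genes. DESeq2 and limma-voom each called cd63 and klf6a lower. Against ins+, edgeR called 2 of the 119, ctnnb1 and cd63, both higher in sst1.1+ins+, where 0.92% of all tested genes were called. At an unadjusted p under 0.05 there were 20, against 12.1% of all tested genes. DESeq2 called 9 higher and 2 lower in sst1.1+ins+, and limma-voom 2 higher and 0 lower.

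Summed markers of stress and of some other cell types differed between the same groups. The 36 immediate early and heat shock genes summed to 20306 to 24402 CPM in sst1.1+ins+, 7447 and 7809 CPM in ins+ and 33107 to 36102 CPM in sst1.1+. By edgeR 21 of 34 tested fell in ins+ against sst1.1+ (klf6a among them), where 2.42% of all tested genes were lower. DESeq2 called 24 of the 34 lower and limma-voom 20. In sst1.1+ins+, 15 of the 34 were higher than in ins+ by edgeR, where 0.755% of all tested genes were higher. DESeq2 called 19 higher there and limma-voom 16. Against sst1.1+, 2 (atf3 and hsp90aa1.2) were lower in sst1.1+ins+ by edgeR, where 0.0305% of all tested genes were lower. DESeq2 called 12 lower there and limma-voom 10. The order of the immediate early and heat shock sums was that of the keratin and integrin sums. Sums of the adherens and desmosome, other intermediate filament and epithelial factor lists had the same order, without overlap of the groups. The 14 ductal markers summed to 482 to 624 CPM in sst1.1+ins+, 310 and 368 CPM in ins+ and 537 to 794 CPM in sst1.1+. By edgeR 3 of 10 tested fell in ins+ against sst1.1+ (cdh17, also in the adherens junction list, clu and tm4sf4). DESeq2 called these 3 lower and nkx6.1 higher, and limma-voom called clu and tm4sf4 lower. Of the 10 tested ductal markers, clu was higher in sst1.1+ins+ than in ins+ (log2 fold change 1.15 ± 0.23, edgeR adjusted p = 0.0408). The duct channel cftr was at 0 in both ins+ and all 3 sst1.1+ libraries. The 13 immune markers summed to 56.0 to 127 CPM in sst1.1+ins+, 78.7 and 98.8 CPM in ins+ and 200 to 316 CPM in sst1.1+, nearly all from cd74a and cd74b, and 1 of 4 tested fell in ins+ against sst1.1+ (cd74a). For sst1.1+ins+ against sst1.1+ edgeR called 0 of the 4, with 2 at an unadjusted p under 0.05, against 7.9% of all tested genes. These were cd74a (log2 fold change -1.98 ± 0.40, edgeR adjusted p = 0.0916) and cd74b (-1.25 ± 0.24, edgeR adjusted p = 0.0837). DESeq2 and limma-voom each called both lower. The leukocyte genes lcp1 and mfap4 were at 0 in every library and ptprc at most at 0.974 CPM. Counts of mpeg1.1 and lyz were found in sst1.1+ only. By contrast, cd79a and coro1a had counts in both other groups and none in sst1.1+, and csf1ra had counts in sst1.1+ins+ only.

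The 12 mesenchymal markers summed to 11.7 to 24 CPM in sst1.1+ins+, 16.1 and 24.1 CPM in ins+ and 13.7 to 109 CPM in sst1.1+. Their highest sum was in sst1.1+ replicate 3, which also had the highest lama4, itga5 and KRT18 (2 of 3). The same library was highest for krt8, krt18, krt15 and lamb2l as well, but not for epcam, itga6b or cldnb. The 12 skin and periderm markers summed to 16.1 to 34.2 CPM in sst1.1+ins+, 10.0 and 31.4 CPM in ins+ and 33.5 to 59.7 CPM in sst1.1+. Of these markers, cyt1l and icn2 were at 0 in every library, whereas cyt1, ppl and anxa1c had counts in sst1.1+ only. The reverse held for col17a1a, which was at 0 in sst1.1+ and had counts in each other group. Only double-positive cells had counts of zgc:165571. The 19 acinar markers summed to 48.2 to 118 CPM in sst1.1+ins+, 26.3 and 78.9 CPM in ins+ and 44.1 to 192 CPM in sst1.1+. The 9 intestinal markers summed to 146 to 214 CPM in sst1.1+ins+, 133 and 154 CPM in ins+ and 119 to 138 CPM in sst1.1+, most of it from vil1. The 14 endothelial and 4 erythrocyte markers summed to at most 5.24 and 2.09 CPM in a library, and the 8 hepatocyte markers to at most 56.9 CPM. These 7 lists, with 43 tested genes, are the marker lists in which edgeR called 0 genes in ins+ against sst1.1+. That 0 follows from how they were grouped and is no result beside the 4.03% of all tested genes called. At an unadjusted p under 0.05 there were 9, against 17.6% of all tested genes. DESeq2 called 3 of the 43 lower (acta2, cpb1 and ela2) and limma-voom 0. The glucagon genes gcga and gcgb and arxa, markers of alpha cells, summed to 24465 to 34107 CPM in sst1.1+ins+, 11359 and 18665 CPM in ins+ and 33702 to 66000 CPM in sst1.1+, and 2 of 3 fell in ins+ against sst1.1+. The part of these signals, of depth and of the ERCC share in the member results was not tested.

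**Figure D5:**
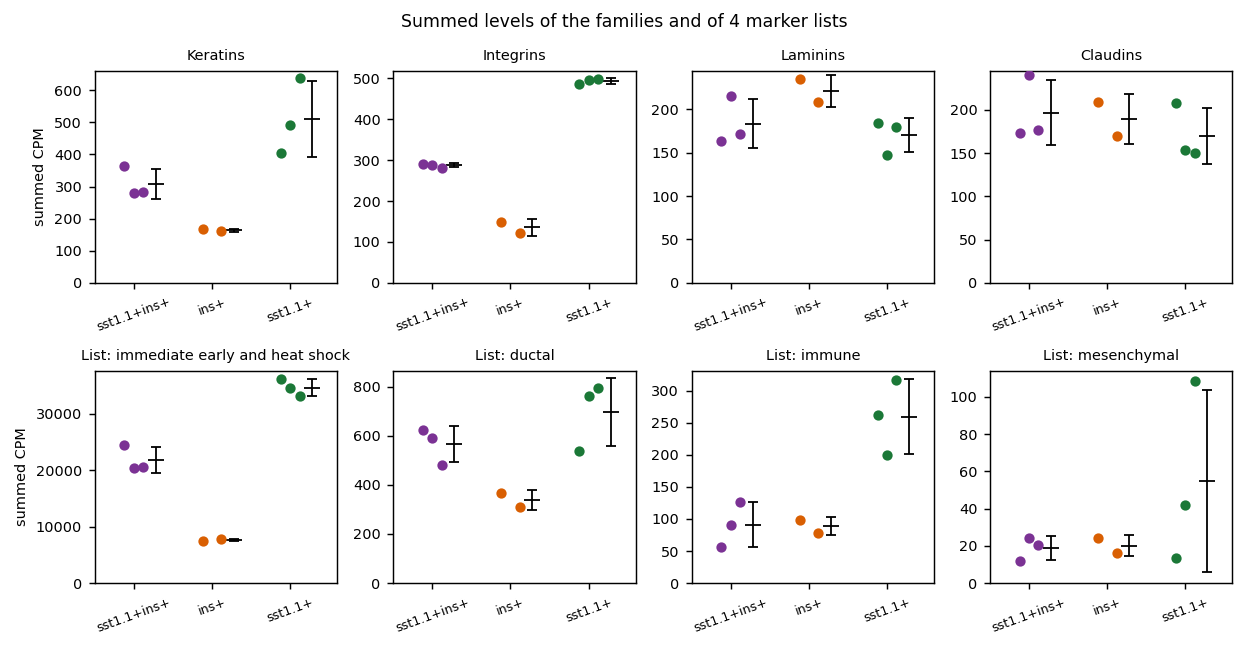
Summed CPM per library of keratins, integrins, laminins and claudins (top) and of 4 marker lists (bottom), with 1 point per library and the mean ± SD beside the points (linear axes from 0). Keratin, integrin and immediate early sums are lowest in ins+ and highest in sst1.1+, with sst1.1+ins+ between, whereas claudin sums overlap in all groups.

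Among the 5 rows that share only a name with the families, krtcap2, a subunit of the enzyme complex for N-glycosylation, stood at 49.4 to 62.8 CPM in sst1.1+ins+, 44.5 and 48.9 CPM in ins+ and 70.6 to 83.3 CPM in sst1.1+ (log2 fold change -0.75 ± 0.21, edgeR adjusted p = 0.0721 for ins+ against sst1.1+). The integrin-binding protein gene itgb1bp1 stood at 10.5 to 25.1 CPM in sst1.1+ins+, 20.1 and 21.4 CPM in ins+ and 23.0 to 27.5 CPM in sst1.1+. None of the 4 tested was called by edgeR in any comparison with the default filter on low counts. For ins+ against sst1.1+ 1 had an unadjusted p under 0.05, against 17.6% of all tested genes. DESeq2 called krtcap2 lower there and limma-voom called 0.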

How the data were processed

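The deposited table holds raw read counts per gene. Trim Galore, HISAT2, featureCounts and the GRCz11 assembly are named in the submitters' processing notes, and Smart-Seq2 per the labels, a protocol without molecular identifiers. Their versions, the annotation release and the strand setting are not stated there. The 92 ERCC rows and the EGFP row were kept out of totals and tests. In R 4.3.3, edgeR 4.0.16 was run on the counts of all 8 libraries: default filter by group (16418 genes kept), TMM, 1 mean per group, 5 residual degrees of freedom, quasi-likelihood F-test and Benjamini-Hochberg adjustment over all genes kept. The SE was taken as the absolute log2 fold change over the square root of F. The script was tested on simulated data. The 17 alternatives included DESeq2 1.42.0, limma 3.58.1, other scalings and filters, a replicate block and each library left out.

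The members and lists were chosen with earlier results of these data known. Named were called members, the 4 tested members with the highest mean CPM in each family and 8 fixed genes where tested, 23 in all with 1 member that the rule names left out as not reported here, and up to 4 genes of smallest p per pathway list. The members lamc1, lama4, lamb1b, cldnc, cldn5a, krt5, krtcap2 and itgb1bp1 were added after their values were seen. No gene lengths were used, so shares and ratios between genes also depend on length and are set side by side between groups only. Symbols of 102 of 110 members had their identifier in the names table.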

Additional observations from a re-analysis of the deposited data

How the results depend on the processing

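No alternative turned the direction of a called member. The 60 members tested became 35 with a minimum of 5 CPM in 2 libraries. For ins+ against sst1.1+ the 8 called members became 12 with no low-count filter (2 higher and 10 lower), 12 with the 5 CPM filter (all lower), 15 with DESeq2 (13 lower and 2 higher) and 5 with limma-voom, and 5 to 8 with a library left out (5 without sst1.1+ replicate 1, sst1.1+ replicate 2 or ins+ replicate 2). For sst1.1+ins+ against sst1.1+ the 2 became 4 with DESeq2 and 0 to 2 with a library left out (0 without sst1.1+ins+ replicate 1 or 3, 1 without sst1.1+ replicate 2). For sst1.1+ins+ against ins+ the 2 became 6 with no low-count filter, 7 with DESeq2, 1 with limma-voom, 1 in a fit on these 2 groups alone, and 2 to 3 with a library left out. With 1 ins+ library left out, the other was taken to vary like the other groups. The calls over all tested genes changed too. For ins+ against sst1.1+ they were 662 in the main fit, 1276 with no low-count filter and 851 with the 5 CPM filter. With an sst1.1+ins+ or sst1.1+ library left out they were 409 to 752. For sst1.1+ins+ against ins+ they were 151 in the main fit, 560 with no low-count filter and 134 in a fit on these 2 groups alone. Leaving out an sst1.1+ins+ or sst1.1+ library gave 59 to 190 calls over all tested genes there. The cause of these changes was not tested. With a replicate block the 3 counts were 9, 2 and 2. Deviations from group means correlated at -0.0291 to 0.0125 between same-numbered libraries and at -0.0393 to 0.0402 between others. Deviations within a group sum to 0 and are thus tied to each other. This check therefore cannot settle whether libraries were paired, and the labels give no pairing.

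Among log2 fold changes that passed no test, some turned sign. With limma-voom, itgb1a became 0.020 in ins+ against sst1.1+, krt94 -0.52 in sst1.1+ins+ against sst1.1+, and KRT18 (2 of 3) -0.19 and itga6a 0.074 in sst1.1+ins+ against ins+. In sst1.1+ins+ against sst1.1+, krt94 became -0.0072 with RLE scaling, -0.0082 with DESeq2 and -1.31 with the replicate block. In sst1.1+ins+ against ins+, itga6a became 0.0090 on library totals, 0.011 without hormone and mitochondrial genes, 0.0044 with no low-count filter and 0.0085 with the 5 CPM filter. With a library left out, ranges in ins+ against sst1.1+ were -6.45 to 4.27 for itgb1a and -0.0066 to 0.59 for cldn12. In sst1.1+ins+ against sst1.1+ they were -2.71 to 0.68 for krt94, -5.59 to 1.66 for KRT18 (2 of 3), -0.037 to 0.58 for itgav and -0.59 to 0.059 for itgb4. In sst1.1+ins+ against ins+ they were -1.29 to 2.73 for KRT18 (2 of 3), -3.79 to 7.82 for krt4, -0.20 to 0.24 for itga6a, -0.56 to 0.22 for itgb5, -1.28 to 0.42 for itgb1b.1, -0.23 to 0.24 for lamb2l and -0.17 to 0.42 for cldn12. For shallow or uneven members such as krt4 and itgb1a the depth and the spread between libraries limit what can be read.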
